A study of Mus musculus with 16 samples.

Results

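The genes described here encode the muscle acetylcholine receptor and the proteins that gather it under the nerve ending. They were taken by symbol from the count table, and 10 of its 29730 genes belong to the set: the receptor subunit genes Chrna1, Chrnb1, Chrnd, Chrne and Chrng, and Agrn, Lrp4, Musk, Dok7 and Rapsn of the agrin pathway. All 10 had enough reads to be tested, among 14960 genes tested in all. RNA of the tibialis anterior, a muscle at the front of the lower leg, was sequenced in male mice aged 7 weeks, with the strain labelled C57BL/6N, to ask how knockout muscle changes when Dnm2 is lowered. There were 4 groups of 4 mice: wild type given saline (WT_PBS), wild type given the antisense oligonucleotide ASO1 against Dnm2 (WT_ASO), Bin1mck-/- mice given saline (KO_PBS) and Bin1mck-/- mice given ASO1 (KO_ASO). The sources used here give neither the dose and times of injection nor the cells in which Bin1 was deleted, and no label says whether the mice were littermates. Each sample was taken as a separate mouse, so P values measure the spread between these samples.

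At the neuromuscular junction the motor nerve releases acetylcholine, which opens a channel built from α, β and δ subunits together with γ in fetal muscle or ε in adult muscle. Agrin from the nerve binds LRP4, LRP4 activates the kinase MuSK, DOK7 supports that activation inside the fibre, and rapsyn ties the receptors into a cluster. In innervated adult muscle the receptor genes are transcribed mainly in the nuclei beneath the synapse, and in denervated muscle the genes of the α, β, δ and γ subunits and of MuSK are transcribed along the whole fibre. E-boxes, with the letters CANNTG, are the binding sites of the myogenic factors, and the N-box, CCGGAA, is known from the ε subunit gene as a site of synapse-specific transcription.

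The bases just upstream of the start are shown for receptor subunit genes and Musk, because they include genes that were called in the comparisons that follow and Chrne, which was not. The sequences are from RefSeq on GRCm38.p6, and each runs 5′ to 3′ towards the start on the strand of the gene. An entry was held for 7 of the 10 genes and was missing for Chrnd, Lrp4 and Rapsn. Chrnd, the gene with the greatest log2FC in knockout muscle given saline, is therefore not among the windows. Capitals mark a match to CANNTG or CCGGAA among the 200 bases before the start. They lie at chr2:73580339-73580538 (minus strand) for Chrna1, chr11:69795938-69796067 (minus) for Chrnb1, chr1:87205611-87205810 (plus) for Chrng, chr4:58285762-58285961 (plus) for Musk and chr11:70619195-70619394 (minus) for Chrne. For Chrnb1 the nearest 130 bases are printed, since the next 70 belong to an untranslated region of the neighbouring gene Fgf11. The Chrng window lies within an intron of a longer transcript of that gene in the GENCODE annotation.
Chrna1: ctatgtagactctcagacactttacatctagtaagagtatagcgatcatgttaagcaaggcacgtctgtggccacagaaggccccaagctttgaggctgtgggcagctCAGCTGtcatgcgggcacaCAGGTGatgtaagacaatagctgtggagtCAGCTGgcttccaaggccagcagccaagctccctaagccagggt
Chrnb1: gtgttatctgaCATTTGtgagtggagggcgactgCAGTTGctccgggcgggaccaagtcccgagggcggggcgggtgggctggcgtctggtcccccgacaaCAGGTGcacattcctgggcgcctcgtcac
Chrng: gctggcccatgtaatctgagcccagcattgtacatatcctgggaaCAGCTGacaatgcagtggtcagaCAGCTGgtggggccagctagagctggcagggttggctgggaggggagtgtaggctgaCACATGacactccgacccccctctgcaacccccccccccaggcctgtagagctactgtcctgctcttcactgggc
Musk: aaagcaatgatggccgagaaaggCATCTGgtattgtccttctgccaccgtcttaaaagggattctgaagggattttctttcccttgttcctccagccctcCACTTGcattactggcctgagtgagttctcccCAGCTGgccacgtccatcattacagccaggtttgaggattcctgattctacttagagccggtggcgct
Chrne: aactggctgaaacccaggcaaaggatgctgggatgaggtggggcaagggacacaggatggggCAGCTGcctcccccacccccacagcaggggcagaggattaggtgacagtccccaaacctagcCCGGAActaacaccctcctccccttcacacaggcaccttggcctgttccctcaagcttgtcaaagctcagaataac

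Chrna1, Chrnb1, Chrng and Musk each held 3 E-boxes in the 200 bases, and Chrne held 1. An E-box was present in 58.2% of all 32851 windows of this length and 3 or more were present in 7.49%. The form CAGCTG, which is one of the sequences counted as an E-box, occurred 2 times in Chrna1, 2 times in Chrng, 1 time in Musk, 1 time in Chrne and 0 times in Chrnb1. Of all windows, 10.9% held this form at least 1 time and 0.916% held it 2 or more times. Among these windows Chrne alone held an N-box, from 76 to 71 bases before the start, where 10.7% of all windows held that motif on either strand. The alternative starts of Agrn and Dok7 held 0 or 1 E-box. These matches describe the letters of the windows and were not tested for a link with expression. Binding was not measured in these samples.

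**Figure D1:**
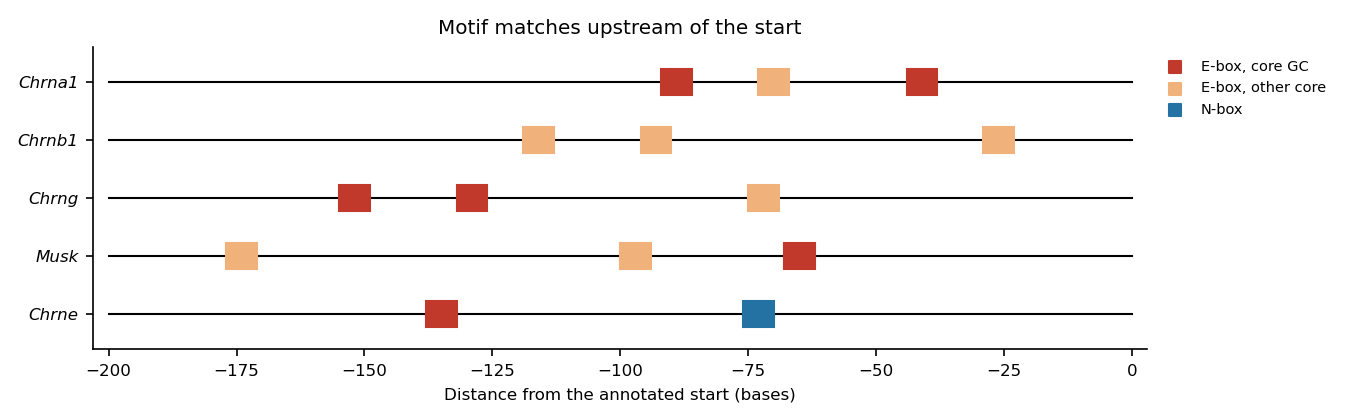
Position of motif matches upstream of the RefSeq start for Chrna1, Chrnb1, Chrng, Musk and Chrne, with distance from the start in bases on the horizontal axis. Red squares are E-boxes of the form CAGCTG, orange squares other E-boxes and the blue square the N-box. Chrna1, Chrnb1, Chrng and Musk have 3 E-boxes each, and the N-box appears on the Chrne line.

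Total counts ran from 27591900 to 40862854 per sample. Levels are given as CPM, read counts divided by library sizes that carry the TMM factors of edgeR, and changes are log2 fold changes (log2FC) from edgeR with their standard errors (SE). Genes at a Benjamini-Hochberg adjusted P value under 0.05 over all genes tested are called DEGs. The targeted genes followed the labels: Bin1 was at 494.7 ± 40.6 CPM in WT_PBS and 44.9 ± 3.27 CPM in KO_PBS (SD, n = 4), and Dnm2 was at 62.8 ± 3.63 CPM in KO_PBS and 24.8 ± 4.48 CPM in KO_ASO (SD, n = 4).

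In Bin1mck-/- muscle given saline, the genes of the α, β, δ and γ receptor subunits and Musk were higher than in wild type, while the gene of the adult ε subunit and the other 4 genes of the agrin pathway did not pass the test. Of the 10 genes, 5 were DEGs and all 5 were higher, where 12.6% of all genes tested were called, 7.43% as higher and 5.12% as lower. The 10 genes were chosen with earlier results of these data known, so this count is no test of the set. The α, β, δ and Musk values of the groups did not overlap. With 4 genes higher without overlap and 1 lower, the shares over all genes tested were 10.5% and 9.85%. In RNA from whole muscle, more transcript per nucleus and more transcribing nuclei or cells cannot be told apart.

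Chrnd (ENSMUSG00000026251, chromosome 1, 87190607 to 87200070, plus strand, GRCm38), the δ subunit gene, showed the greatest log2FC among the 10 genes. The WT_PBS samples were at 4.47, 1.60, 3.55 and 3.41 CPM and the KO_PBS samples at 35.9, 15.5, 12.6 and 18.3 CPM. The lowest knockout sample lay well above the highest wild-type sample, and the mean rose from 3.26 ± 1.20 to 20.6 ± 10.4 CPM (SD, n = 4), which is 632% of the WT_PBS mean. By edgeR the log2FC was 2.65 (SE 0.39, adjusted P 0.000463). Without replicate 1 of KO_PBS, the highest sample, it was 2.24 and the gene was still a DEG.

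Chrna1 (ENSMUSG00000027107, chromosome 2, 73563215 to 73580338, minus strand) encodes the α subunit, which carries the main part of the acetylcholine binding sites. Its levels were 18.8, 16.9, 19.5 and 20.7 CPM in WT_PBS and 84.0, 51.5, 56.5 and 69.5 CPM in KO_PBS. The wild-type samples sat close together and each knockout sample was far above them. The log2FC was 1.78 (SE 0.22) with an edgeR adjusted P of 8.27e-05, and the KO_PBS mean was 344% of the WT_PBS mean.

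Chrnb1 (ENSMUSG00000041189, chromosome 11, 69784036 to 69795943, minus strand), the β subunit gene, was the most abundant receptor gene and changed less. The WT_PBS samples measured 41.4, 44.8, 40.8 and 38.1 CPM and the KO_PBS samples 75.9, 62.8, 65.9 and 78.1 CPM. The groups did not overlap, and the knockout mean was 171% of the wild-type mean. The log2FC was 0.78 (SE 0.12) with an edgeR adjusted P of 0.000416. The calls of Chrna1, Chrnb1 and Chrnd in KO_PBS vs WT_PBS were kept under every alternative tried.

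Chrng (ENSMUSG00000026253, chromosome 1, 87204657 to 87212694, plus strand) encodes the fetal γ subunit and begins 4.59 kb after the end of Chrnd on the same strand. It was rare, with 5 to 14 counts in a WT_PBS sample and 12 to 61 counts in a KO_PBS sample. In WT_PBS it measured 0.234, 0.186, 0.259 and 0.351 CPM and in KO_PBS 1.68, 0.340, 0.805 and 0.542 CPM. Replicate 2 of KO_PBS fell within the wild-type range, and replicate 1 was the highest. The log2FC was 1.67 (SE 0.49) with an edgeR adjusted P of 0.0341. This call rested on single samples: the adjusted P was 0.164 without KO_PBS replicate 1, with a log2FC of 1.11, and 0.0542 without KO_PBS replicate 3. It was 0.0715, 0.0876, 0.0718 and 0.0577 without WT_PBS replicates 1, 2, 3 and 4, and 0.112 with limma-voom.

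Chrne (ENSMUSG00000014609, chromosome 11, 70614883 to 70619216, minus strand), the ε subunit gene of the adult receptor, had overlapping levels in both genotypes. The WT_PBS samples were at 20.2, 19.4, 17.4 and 19.6 CPM and the KO_PBS samples at 21.4, 17.3, 16.5 and 19.2 CPM. The wild-type samples all lay inside the knockout range. The log2FC was -0.04 (SE 0.12, edgeR adjusted P 0.86) with TMM and 0.11 without scaling beyond library totals, so no direction is given for it.

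Musk (ENSMUSG00000057280, chromosome 4, 58285960 to 58374303, plus strand), the kinase at the centre of the agrin pathway, was the only DEG among the 5 genes of that pathway. Its levels were 3.54, 4.99, 4.31 and 2.86 CPM in WT_PBS and 9.79, 6.88, 5.36 and 10.3 CPM in KO_PBS. The lowest knockout sample was just above the highest wild-type sample, and the knockout mean was 206% of the wild-type mean. The log2FC was 1.05 (SE 0.26) with an edgeR adjusted P of 0.0142. The adjusted P was 0.0502 without KO_PBS replicate 1 and 0.0547 without WT_PBS replicate 4.

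Agrn (ENSMUSG00000041936, chromosome 4, 156165290 to 156197488, minus strand), which encodes agrin, measured 27.1, 25.8, 36.4 and 29.6 CPM in WT_PBS and 25.6, 24.0, 29.2 and 23.2 CPM in KO_PBS. Lrp4 (ENSMUSG00000027253, chromosome 2, 91457511 to 91513779, plus strand), the agrin receptor gene, measured 19.9, 14.1, 17.8 and 14.6 CPM in WT_PBS and 21.0, 19.97, 20.8 and 15.5 CPM in KO_PBS. The groups overlapped for both genes. The log2FC was -0.22 (SE 0.14, edgeR adjusted P 0.342) for Agrn and 0.22 (SE 0.13, adjusted P 0.314) for Lrp4.

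Dok7 (ENSMUSG00000044716, chromosome 5, 35056766 to 35087839, plus strand), which encodes the adaptor that supports MuSK, had the largest SD in CPM of the 10 genes in WT_PBS, at 12.8 CPM (n = 4). It measured 20.8, 46.8, 46.7 and 30.4 CPM in WT_PBS and 29.9, 36.5, 34.9 and 31.9 CPM in KO_PBS. All knockout samples lay inside the wild-type range. The log2FC was -0.12 (SE 0.24, edgeR adjusted P 0.802) with TMM and 0.04 without scaling.

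Rapsn (ENSMUSG00000002104, chromosome 2, 91035620 to 91045729, plus strand), the rapsyn gene, measured 30.4, 31.8, 34.3 and 31.5 CPM in WT_PBS and 28.7, 29.4, 29.6 and 27.9 CPM in KO_PBS. All 4 knockout samples were below all 4 wild-type samples, by a small amount. The exact two-sided permutation P was 0.0286, the smallest that 4 against 4 samples can give, and the log2FC of -0.15 (SE 0.10) did not pass edgeR, with an adjusted P of 0.347. Without scaling beyond library totals the log2FC was 0.0023. An exon of Gm13778, which averaged 12.1 counts per sample, overlaps Rapsn on the opposite strand, so the Rapsn value depends on whether the counting used the strand.

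**Figure D2:**
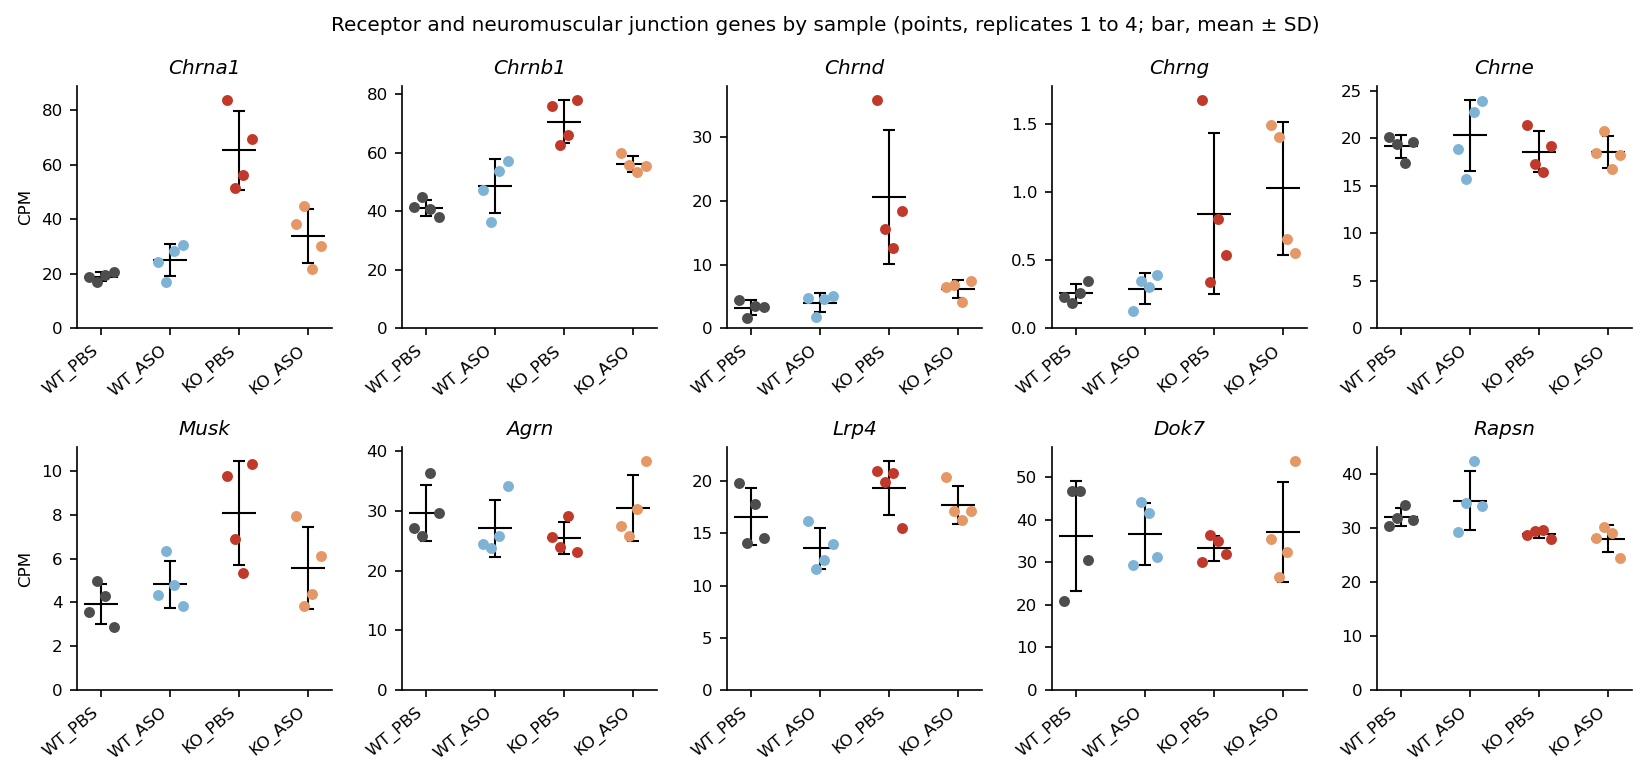
Level of each of the 10 genes in every sample, in CPM on a linear axis from 0, with 4 points per group for replicates 1 to 4 and bars for the mean ± SD. The KO_PBS points of Chrna1, Chrnb1, Chrnd and Musk lie above all WT_PBS points, and the Chrne points of the 4 groups share a range.

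With ASO1, 2 of the genes raised in knockout muscle were lower than in saline-treated knockout muscle. Of the 10 genes, 2 were DEGs in KO_ASO vs KO_PBS, Chrnd and Chrna1, and both were lower, where 3.64% of all genes tested were called and 2.83% were called lower. The values of Chrna1, Chrnb1 and Chrnd did not overlap between the groups, 3 genes lower, beside 6.34% over all genes tested. The same 2 genes were called by DESeq2 and by limma-voom, which called 7.07% and 7.93% of all genes (for DESeq2, here and in what follows, of those given an adjusted P). This comparison and KO_PBS vs WT_PBS share the KO_PBS samples, so their values are given side by side and not related to each other.

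Chrnd was at 6.44, 6.74, 4.12 and 7.39 CPM in KO_ASO. Each of these samples was below the lowest KO_PBS sample, and the lowest was inside the WT_PBS range. The mean of 6.17 ± 1.42 CPM (SD, n = 4) was 189% of the WT_PBS mean, against 632% in KO_PBS. The log2FC was -1.74 (SE 0.37) with an edgeR adjusted P of 0.0182. The adjusted P was 0.0608 without KO_PBS replicate 1, with a log2FC of -1.33, 0.0620 without KO_ASO replicate 1, 0.0610 without KO_ASO replicate 3 and 0.0584 with no filter on low counts.

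Chrna1 was at 38.2, 44.8, 21.8 and 30.4 CPM in KO_ASO, below every KO_PBS sample and above every WT_PBS sample. The mean of 33.8 ± 9.95 CPM (SD, n = 4) was 178% of the WT_PBS mean, against 344% in KO_PBS. The log2FC was -0.95 (SE 0.21) with an edgeR adjusted P of 0.0216. The adjusted P was 0.0799 without KO_PBS replicate 1, 0.0530 without KO_PBS replicate 4 and 0.0552 without KO_ASO replicate 3, and it was 0.0590 with no filter and 0.0707 when the fit held the compared groups alone.

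Chrnb1 measured 59.8, 56.0, 53.4 and 55.4 CPM in KO_ASO. These samples were closely spaced, below every KO_PBS sample and above every WT_PBS sample. The log2FC of -0.33 (SE 0.11) had an edgeR adjusted P of 0.127, which became 0.0447 without WT_ASO replicate 2. Musk measured 7.96, 3.83, 4.395 and 6.13 CPM, a range that reached from the wild-type to the knockout samples, and edgeR gave a log2FC of -0.53 (SE 0.25, adjusted P 0.288).

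Chrng, the γ gene, was at 1.49, 1.41, 0.658 and 0.557 CPM in KO_ASO, with 16 to 55 counts per sample. The KO_ASO and KO_PBS samples overlapped across their range, and all 4 KO_ASO samples were above every WT_PBS sample. The log2FC against KO_PBS was 0.30 (SE 0.44, edgeR adjusted P 0.799), and it ran from 0.04 to 0.86 when 1 sample at a time was left out.

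Of the remaining genes, Chrne measured 18.4, 20.8, 16.8 and 18.3 CPM in KO_ASO and Rapsn 28.2, 30.2, 29.2 and 24.5 CPM. Agrn measured 27.5, 25.8, 30.4 and 38.3 CPM, Lrp4 20.4, 17.1, 16.3 and 17.1 CPM and Dok7 35.5, 26.5, 32.3 and 53.7 CPM. For all 5 the KO_ASO samples overlapped the KO_PBS samples. Their log2FC ran from -0.12 for Lrp4 to 0.26 for Agrn, with edgeR adjusted P values from 0.377 to 0.997.

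**Figure D3:**
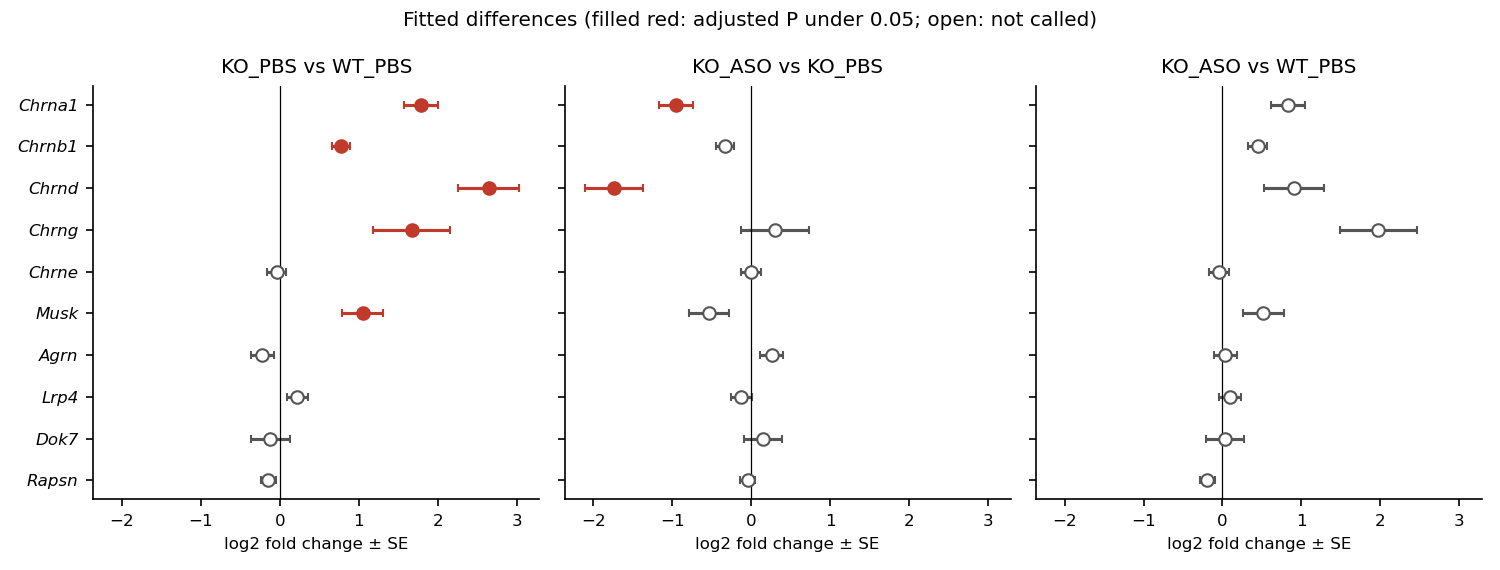
Fitted log2 fold change ± SE of the 10 genes for 3 comparisons, from left to right KO_PBS vs WT_PBS, KO_ASO vs KO_PBS, then KO_ASO vs WT_PBS, with filled red points for an adjusted P under 0.05 and open points for the rest. The first comparison has 5 filled points to the right of 0, the next has 2 to the left, Chrna1 and Chrnd, and the last has 0 filled points.

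Treated knockout muscle was then set against saline-treated wild type. Of the 10 genes 0 were called by edgeR in KO_ASO vs WT_PBS, where 0.0401% of all genes tested were called. An unadjusted P under 0.05 was seen for 4 genes, beside 8.22% of all genes tested. The calls were 3 by DESeq2, beside 0.636% of all genes, and 0 by limma-voom, beside 0.0334%. The log2FC was 1.97 (SE 0.49, adjusted P 0.231) for Chrng, 0.83 (SE 0.21, adjusted P 0.234) for Chrna1, 0.44 (SE 0.12, adjusted P 0.239) for Chrnb1 and 0.91 (SE 0.38, adjusted P 0.556) for Chrnd. DESeq2 gave adjusted P values of 0.0266 for Chrna1, 0.0481 for Chrnb1 and 0.0272 for Chrng. Those 3 genes were higher without overlap and Rapsn was lower without overlap, with a log2FC of -0.19, beside 2.38% and 3.01% over all genes tested.

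In wild-type muscle the oligonucleotide left the set without a call. Chrna1 measured 24.2, 17.2, 28.4 and 30.6 CPM in WT_ASO and Chrnb1 47.3, 36.4, 53.9 and 57.2 CPM. In both genes replicate 2 lay within or below the WT_PBS samples and the other 3 samples were above them. Chrnd measured 4.78, 1.74, 4.58 and 5.06 CPM, Chrng 0.131, 0.347, 0.304 and 0.389 CPM and Musk 4.32, 6.34, 4.80 and 3.84 CPM. Of the 10 genes 0 were called by edgeR in WT_ASO vs WT_PBS, beside 0.00668% of all genes tested, 0 by DESeq2, beside 0.221%, and 0 by limma-voom, beside 0.00668%. The log2FC ran from -0.29 for Lrp4, the 1 gene with an unadjusted P under 0.05 (adjusted P 0.763), beside 6.45% of all genes tested, to 0.40 (SE 0.21, adjusted P 0.802) for Chrna1. The WT_ASO samples of Lrp4 were at 16.2, 11.6, 12.5 and 14.0 CPM, which overlapped the WT_PBS samples.

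Between the genotypes under ASO1, KO_ASO vs WT_ASO, edgeR called 0 of the 10 genes, beside 0.0735% of all genes tested. An unadjusted P under 0.05 was seen for 3 genes, beside 15.1% of all genes tested. The calls were 1 by DESeq2, beside 3.2% of all genes, and 0 by limma-voom, beside 0.0134%. The 1 gene was Chrng, at 1.80 on the log2 scale (SE 0.48, edgeR adjusted P 0.125, DESeq2 adjusted P 0.0246). Chrng and Lrp4 were higher without overlap, 2 genes, beside 2.96% over all genes tested. For Lrp4 the log2FC was 0.39 (SE 0.13, edgeR adjusted P 0.207). Rapsn was at -0.32 (SE 0.10, edgeR adjusted P 0.1497), and its groups overlapped.

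The interaction compares the effect of ASO1 in knockout muscle with its effect in wild type. edgeR called 0 of the 10 genes, where 0.575% of all genes tested were called. In this contrast 4 genes had an unadjusted P under 0.05, beside 12.7% of all genes tested, with 3 calls by DESeq2, beside 2.68% of all genes, and 0 by limma-voom, beside 0.695%. The difference of effects on the log2 scale was -1.35 (SE 0.30, adjusted P 0.0570) for Chrna1, -2.03 (SE 0.53, adjusted P 0.105) for Chrnd, -0.57 (SE 0.16, adjusted P 0.139) for Chrnb1 and -0.84 (SE 0.36, adjusted P 0.350) for Musk. The DESeq2 adjusted P values were 0.00166 for Chrna1, 0.00620 for Chrnd and 0.0416 for Chrnb1. Without WT_ASO replicate 2 the edgeR adjusted P was 0.0265 for Chrna1, 0.0446 for Chrnd and 0.0257 for Chrnb1, and without KO_ASO replicate 2 it was 0.0376 for Chrna1. A difference of the oligonucleotide effect between genotypes was therefore called or missed depending on the test and on single samples.

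Levels can be compared between genes after division by exon length. In WT_PBS the order was Rapsn at 17.8 ± 0.916 CPM per kb, Chrnb1 at 16.3 ± 1.08, Chrne at 11.3 ± 0.704, Dok7 at 8.46 ± 2.999 and Chrna1 at 4.33 ± 0.362 CPM per kb (SD, n = 4). Agrn followed at 3.20 ± 0.506, Lrp4 at 1.58 ± 0.261, Musk at 1.04 ± 0.245, Chrnd at 0.991 ± 0.366 and Chrng at 0.0619 ± 0.0166 CPM per kb (SD, n = 4). The ranges of Rapsn and Chrnb1, of Chrne and Dok7, of Chrna1 and Agrn, and of Musk and Chrnd overlapped in that order. The order of the means was the same in WT_ASO. The order depended in part on the length used. Per kb of the longest coding transcript, a length chosen after seeing the data, Dok7 came before Chrne in WT_PBS, at 13.01 and 11.8 CPM per kb, and in WT_ASO Chrnb1 came before Rapsn, at 22.6 and 21.8 CPM per kb, with overlapping ranges in both pairs.

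In KO_PBS the order of these levels per kb of exon changed. Chrnb1 came first at 27.9 ± 2.94 CPM per kb, above Rapsn at 16.04 ± 0.436, and Chrna1 at 14.9 ± 3.31 CPM per kb (SD, n = 4) overlapped both Rapsn and Chrne, whose samples ran from 9.75 to 12.6 CPM per kb. Chrnd reached 6.26 ± 3.18 CPM per kb, which overlapped Dok7 at 7.79 ± 0.685 (SD, n = 4). Agrn at 2.74 ± 0.285, Musk at 2.14 ± 0.626 and Lrp4 at 1.84 ± 0.248 CPM per kb (SD, n = 4) followed, each overlapping the next, and Chrng was the lowest at 0.202 ± 0.142 CPM per kb (SD, n = 4). With the longest coding transcript Chrnb1 was again first and Chrng last, while Dok7 came before Chrne and Lrp4 before Musk. In KO_ASO Chrna1 was at 7.70 ± 2.27 and Chrnd at 1.88 ± 0.433 CPM per kb (SD, n = 4).

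The fetal γ and adult ε subunits occupy the same place in the receptor, so the share of Chrng in the sum of Chrng and Chrne per kb was computed. It was 0.545% ± 0.147 in WT_PBS, 0.591% ± 0.252 in WT_ASO, 1.74% ± 1.02 in KO_PBS and 2.16% ± 0.920 in KO_ASO (SD, n = 4). The KO_PBS samples ran from 0.792% to 3.10%, and the lowest lay just above the highest WT_PBS sample at 0.722%. The KO_PBS samples overlapped WT_ASO, which reached 0.888%, while the KO_ASO samples ran from 1.22% to 3.18%. No test was made on this share. Chrne transcript exceeded Chrng transcript by a wide margin in every sample.

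**Figure D4:**
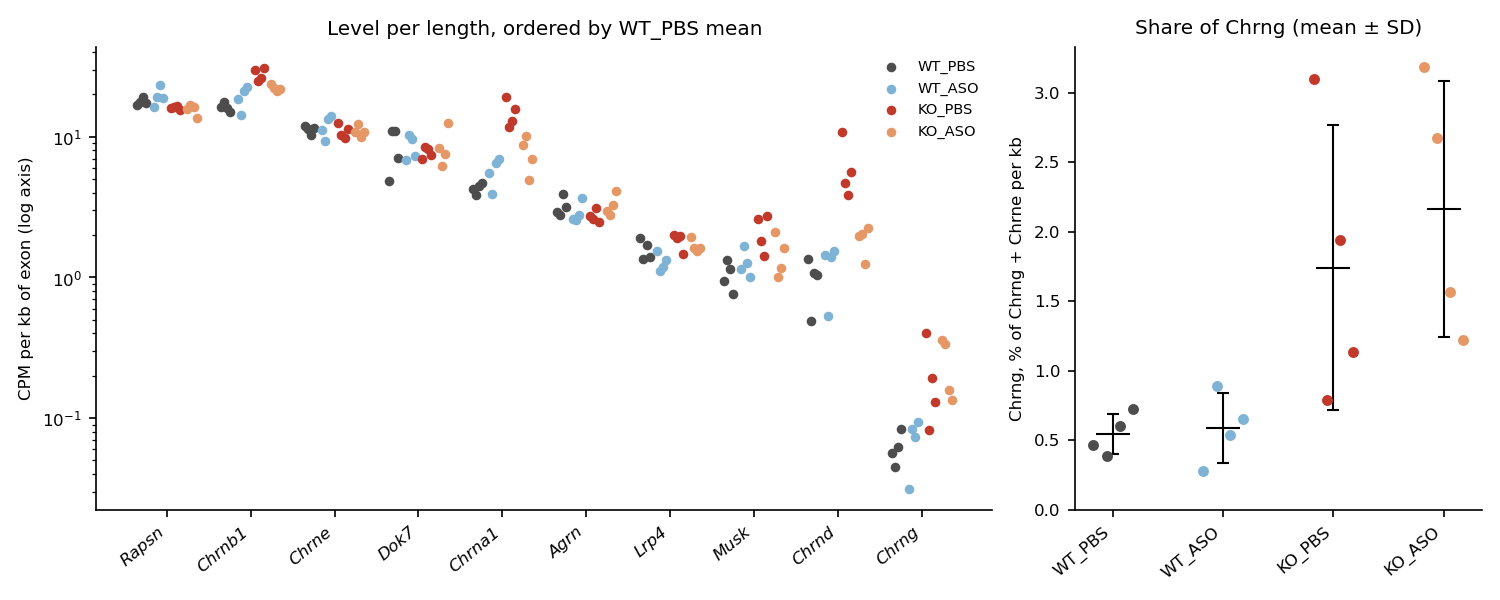
Left, level per exon length of each gene in every sample, in CPM per kb on a log axis, with genes ordered by their WT_PBS mean and colours for the groups. Right, share of Chrng in Chrng plus Chrne per kb, in percent, with points for samples and bars for the mean ± SD; the share is below 1% in all wild-type samples and reaches 3.18% in KO_ASO.

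Other genes of the junction were read from lists written by their known roles. For the 5 receptor genes the median log2FC in KO_PBS vs WT_PBS was 1.67 and for the 5 genes of the agrin pathway it was -0.12, beside -0.01 over all genes tested. In KO_ASO vs KO_PBS these medians were -0.33 and -0.04, beside 0.01. Of all genes tested, 7.43% were called higher and 5.12% lower in KO_PBS vs WT_PBS, and 2.83% were called lower in KO_ASO vs KO_PBS. The counts of the lists stand beside these shares, and nothing is read from a count near them. The values for other genes that follow are from the same edgeR fit.

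Of 11 nicotinic subunit genes that are not part of the muscle receptor, 7 were in the table and 4 were tested. Chrna9, a subunit known from hair cells of the inner ear, was the 1 gene called higher, with a log2FC of 2.92 (SE 0.56, adjusted P 0.00307) in KO_PBS vs WT_PBS. It was a rare transcript, at 0.1499 ± 0.0650 CPM in WT_PBS, 1.19 ± 0.377 in KO_PBS and 0.246 ± 0.0982 CPM in KO_ASO (SD, n = 4). In KO_ASO vs KO_PBS its log2FC was -2.29 (SE 0.54, adjusted P 0.0287), and this call was lost on leaving out KO_PBS replicates 1 or 4, or any of KO_ASO replicates 1, 2 and 3, with adjusted P values from 0.0551 to 0.102.

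Among 13 regulators that link muscle activity to receptor genes, 4 were higher and 2 lower in KO_PBS vs WT_PBS, with a median log2FC of 0.18, and 0 were higher and 2 lower in KO_ASO vs KO_PBS, with a median of -0.05. Myog, the myogenic factor that binds E-boxes, rose from 3.30 ± 0.716 to 21.4 ± 6.34 CPM (SD, n = 4), with a log2FC of 2.70 (SE 0.32, adjusted P 6.89e-05). In KO_ASO Myog was at 12.6 ± 5.46 CPM (SD, n = 4), with a log2FC of -0.76 (SE 0.29, adjusted P 0.174) against KO_PBS and 1.94 (SE 0.31, adjusted P 0.0418) against WT_PBS. With limma-voom the adjusted P of Myog against KO_PBS was 0.0205. Runx1, a transcription factor known to rise on denervation, had a log2FC of 2.30 (SE 0.25, adjusted P 2.59e-05) and then -1.49 (SE 0.24, adjusted P 0.00320). Camk2d, a calcium-dependent kinase gene, had a log2FC of 0.91 (SE 0.14, adjusted P 0.000677) and then -0.64 (SE 0.14, adjusted P 0.0199), while Camk2a of the same family was lower at -0.89 (SE 0.16, adjusted P 0.00224) in KO_PBS. The second call of Camk2d was lost on leaving out KO_PBS replicate 1, KO_PBS replicate 4 or KO_ASO replicate 1, with adjusted P values of 0.0653, 0.0543 and 0.0751.

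Of 14 genes of the postsynaptic scaffold and its channels, 3 were higher and 1 lower in KO_PBS vs WT_PBS, and 0 were higher and 2 lower in KO_ASO vs KO_PBS. Ncam1, an adhesion molecule that spreads over the fibre after denervation, was at 7.998 ± 0.805 CPM in WT_PBS, 38.3 ± 7.02 in KO_PBS and 13.1 ± 2.39 CPM in KO_ASO (SD, n = 4). Its log2FC was 2.26 (SE 0.15, adjusted P 1.03e-07) and then -1.54 (SE 0.14, adjusted P 3.15e-05). Macf1, a linker of the cytoskeleton, was higher at 0.64 (SE 0.13, adjusted P 0.00444). Scn4a, the sodium channel of adult muscle, was lower at -0.49 (SE 0.13, adjusted P 0.0239), a call that was lost on leaving out KO_PBS replicates 1 or 2, or WT_PBS replicates 2 or 4, with adjusted P values from 0.0516 to 0.0892, and without scaling, at 0.0732.

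Of 14 genes of the synaptic basal lamina and acetylcholinesterase, 3 were higher and 0 lower in KO_PBS vs WT_PBS and 0 were higher and 1 lower in KO_ASO vs KO_PBS. Colq, which encodes the collagen tail that anchors acetylcholinesterase, rose with a log2FC of 1.02 (SE 0.21, adjusted P 0.00465) and was at -0.77 (SE 0.21, adjusted P 0.0507) in KO_ASO vs KO_PBS. Col4a5, a collagen of basement membranes, was at 1.20 (SE 0.21, adjusted P 0.00150) and then -1.07 (SE 0.21, adjusted P 0.00935). Bgn, which encodes the matrix proteoglycan biglycan, was at 1.35 (SE 0.29, adjusted P 0.00808) and then -1.02 (SE 0.29, adjusted P 0.0671). In KO_ASO vs KO_PBS both Colq and Bgn were called by DESeq2, with adjusted P values of 0.0101 and 0.00806, and by limma-voom, with 0.0144 and 0.0123.

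Of 14 adaptors and kinases of MuSK, 3 were higher and 4 lower in KO_PBS vs WT_PBS, with a median log2FC of -0.04. Ptpn11, a phosphatase gene, was at -0.35 (SE 0.07, adjusted P 0.00460) and then 0.32 (SE 0.07, adjusted P 0.0230) in KO_ASO vs KO_PBS, Abl1, a kinase gene, at -0.44 (SE 0.10, adjusted P 0.00678), Ctnnb1, which encodes β-catenin, at -0.25 (SE 0.07, adjusted P 0.0256) and Fyn, another kinase gene, at 0.61 (SE 0.18, adjusted P 0.0329). The calls of Ptpn11 in KO_ASO vs KO_PBS, Ctnnb1 and Fyn were each lost on leaving out several single samples. That of Ptpn11 was also lost without scaling, at a log2FC of 0.22 with an adjusted P of 0.0743, with no filter, at 0.0726, and with the compared groups alone, at 0.0616. Without scaling, Ptpn11 in KO_PBS vs WT_PBS had a log2FC of -0.20 with an adjusted P of 0.0628, and Ctnnb1 of -0.098 with an adjusted P of 0.427. The call of Ctnnb1 was also lost with no filter, at 0.0912, and with the compared groups alone, at 0.0558. Of 8 tested genes of neuregulin receptors and subsynaptic transcription, 2 were higher and 0 lower, Prkar1a at 0.58 (SE 0.14, adjusted P 0.0125) and Erbb2 at 0.56 (SE 0.15, adjusted P 0.0206), and of 5 glycosylation genes mutated in congenital myasthenia 0 were higher and 1 lower, Alg2 at -0.57 (SE 0.13, adjusted P 0.00838). These 2 lists are short, and their counts are not read beyond the shares of all genes given above. The call of Erbb2 was lost on leaving out WT_PBS replicates 1, 2 or 4, or KO_PBS replicates 1 or 4, with adjusted P values from 0.0574 to 0.0713. In KO_ASO vs KO_PBS the median log2FC of the neuregulin list was -0.24, with 0 of its 8 genes called.

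Several of these junction genes were called in KO_ASO vs KO_PBS by another test or scaling and not by edgeR with TMM. The edgeR log2FC was -0.50 (adjusted P 0.0718) for Erbb2, -0.47 (adjusted P 0.0756) for Prkar1a, -0.43 (adjusted P 0.0763) for Macf1, 0.54 (adjusted P 0.0765) for Camk2a, 0.41 (adjusted P 0.0945) for Alg2 and 0.21 (adjusted P 0.103) for Ctnnb1. DESeq2 gave adjusted P values of 0.0256 for Erbb2, 0.0283 for Prkar1a, 0.0324 for Macf1, 0.0282 for Camk2a and 0.0111 for Ctnnb1. With limma-voom they were 0.0488 for Erbb2, 0.0205 for Camk2a, 0.0346 for Ctnnb1 and 0.0309 for Alg2. Without scaling, edgeR called Erbb2 and Macf1, both at 0.0358, and Prkar1a, at 0.0423.

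**Figure D5:**
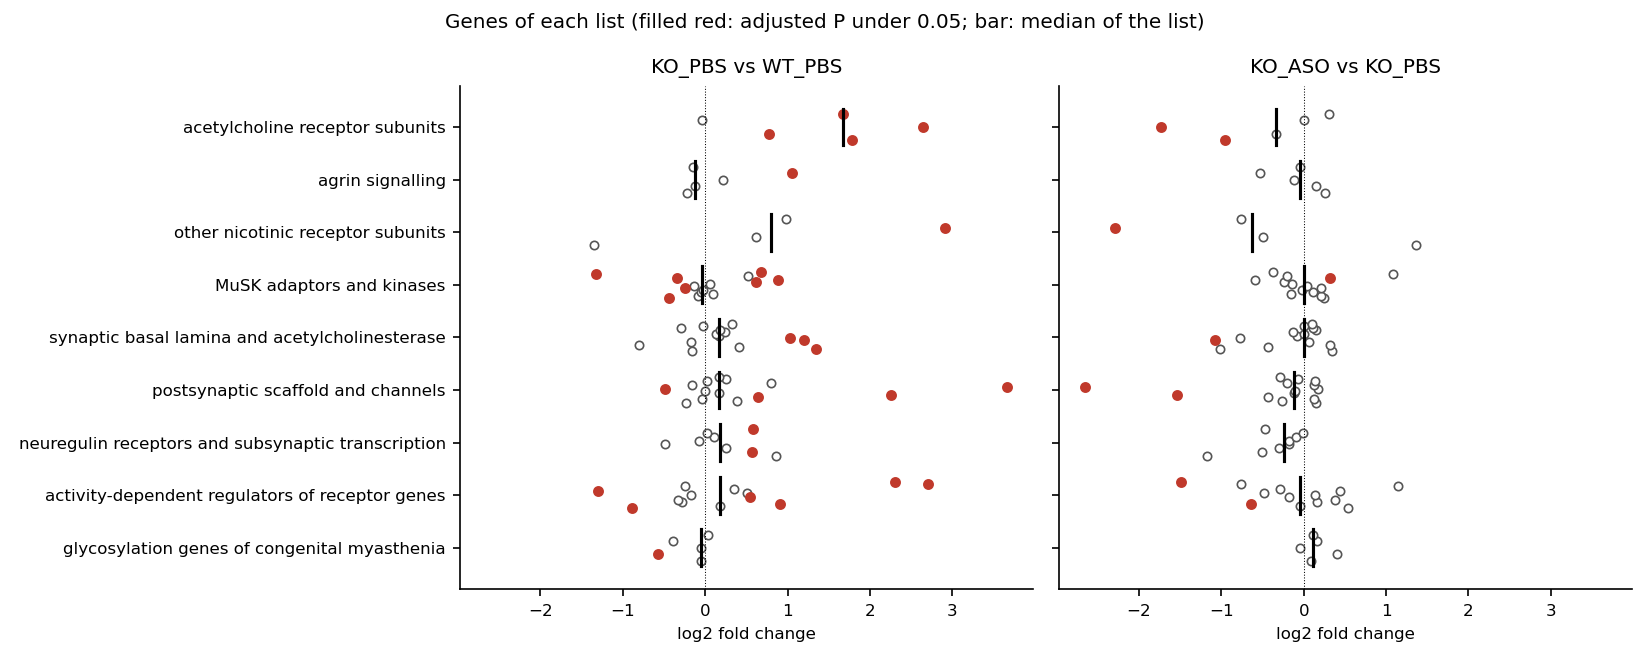
log2 fold change of each tested gene of the junction lists in KO_PBS vs WT_PBS (left) and KO_ASO vs KO_PBS (right), with filled red points for an adjusted P under 0.05, open points for the rest and a black bar for the median of the list. The median of the receptor genes is at 1.67 on the left and -0.33 on the right, and the medians of most other lists lie near 0.

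Markers of other cells in the muscle moved with the same groups. Of 7 macrophage markers 6 were higher and 0 lower in KO_PBS vs WT_PBS and 0 were higher and 5 lower in KO_ASO vs KO_PBS, and their summed level ran from 32.2 to 54.2 CPM in WT_PBS, 29.0 to 70.01 in WT_ASO, 85.1 to 264.3 in KO_PBS and 33.2 to 47.6 CPM in KO_ASO. Of 5 fibroblast markers 2 were higher and then 1 lower, with sums of 744.9 to 1013 CPM in WT_PBS, 319.2 to 1212 in WT_ASO, 1001 to 1727 in KO_PBS and 395.7 to 1343 CPM in KO_ASO. Of 5 satellite cell markers 0 were higher and 4 lower in KO_PBS vs WT_PBS, with sums of 30.1 to 35.1 CPM in WT_PBS, 29.2 to 41.5 in WT_ASO, 25.9 to 28.3 in KO_PBS and 23.4 to 33.2 CPM in KO_ASO. In KO_ASO vs KO_PBS 0 of the satellite cell markers were called. Of 9 Schwann cell markers 0 were called in either comparison, with sums of 57.1 to 89.7 CPM in WT_PBS and 62.6 to 105.2 CPM in KO_PBS, and of 5 endothelial markers 0 were called. Of 7 myofibre markers 0 were higher and 1 lower in KO_PBS vs WT_PBS, and their summed level ran from 144064 to 173172 CPM in WT_PBS, 143163 to 199845 in WT_ASO, 122543 to 128215 in KO_PBS and 126992 to 149513 CPM in KO_ASO. The KO_PBS sums were below every WT_PBS sum. No marker was at 0 counts in a sample, and the part of these cells in the receptor results was not tested.

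The tested genes most like 3 of the members in pattern were found by the root mean square difference of log2 CPM, centred on its mean over the 16 samples. For Chrna1, whose own spread was 0.718, these were Klhl40, a sarcomere-associated gene, at 0.269, G430095P16Rik at 0.276 and Fez1, a kinesin adaptor gene, at 0.293. Klhl40 had mean levels of 105.1, 121.7, 310.0 and 150.7 CPM in WT_PBS, WT_ASO, KO_PBS and KO_ASO. For Musk, with a spread of 0.504, they were Ccdc136 at 0.261, Gga2, a clathrin adaptor gene, at 0.270 and Cd63-ps, a pseudogene, at 0.291. For Chrng, with a spread of 0.930, the nearest were Rad51ap1, a DNA repair gene, at 0.575, Aif1l at 0.576 and 4933424G06Rik at 0.621. Within the set, Chrnb1 was nearest to Chrna1 at 0.435 and to Musk at 0.370. These genes were picked on the samples described and carry no test.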

How the data were processed

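The deposited table holds whole-number counts of reads for each Ensembl gene, made by the authors without normalization, with 1 column per sample, and 0 columns belonged to other samples. The tools in the submitters' processing notes are HTSeq 0.6.1p1, STAR 2.5.3a, Bowtie2 2.2.8 and cutadapt 1.10, with GRCm38 (mm10) as the build. Libraries were made with a stranded messenger RNA kit, and neither the annotation release nor the strand setting of the counting was found in the sources used. Symbols, coordinates and exon lengths (union of exons) came from GENCODE vM21, which matched all 29730 identifiers, and the promoter search used the 200 bases before each RefSeq start.

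The filterByExpr function, given the groups, kept 14960 genes and removed 14770. All 16 samples entered 1 edgeR 4.0.16 fit (glmQLFit, robust, R 4.3.3, TMM) with a mean for each group and a common biological coefficient of variation of 18.7%. P values were adjusted by Benjamini-Hochberg within each of 6 comparisons, and log2 CPM used a prior count of 2. Exact permutation tests were two-sided. With TMM the median log2FC of all genes in KO_PBS vs WT_PBS was -0.01 and without scaling it was 0.14, so changes are relative to TMM. Alternatives were RLE factors, no scaling, no filter, DESeq2 1.42.0, limma-voom (limma 3.58.1) with quality weights, a replicate block, the compared groups alone and leaving out each sample. The steps were tested on simulated data. Samples of a group differed by a mean chi-square of at least 22.2 per gene, so no library appeared more than once within a group. Samples of different groups were not compared in this way.

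The members and lists were chosen with earlier results of these data known. Named beside the members were Bin1 and Dnm2, up to 4 called genes per list with the smallest P values in KO_PBS vs WT_PBS or KO_ASO vs KO_PBS, and the 3 nearest genes in pattern to Chrna1, Chrng and Musk. The values of 1 gene that this rule named are not reported here. Chrng, with 4 to 61 counts per sample, had the largest SE of the set in KO_PBS vs WT_PBS, at 0.49. The SE did not follow the counts alone. In the same comparison it was 0.24 for Dok7, with 710 to 1799 counts per sample, and 0.12 for Chrne, with 485 to 861.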

Additional observations from a re-analysis of the deposited data

Results flagged for a closer look

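Chrnd in WT_ASO replicate 2 measured 1.74 CPM, apart from the other 3 samples of the group at 4.58 to 5.06 CPM. The gap to the nearest sample was 0.857 of the range of the group, above the 95% limit of Dixon's test for 4 samples. Among 44 combinations of a group and a value checked, chance alone marks about 5% in this way. WT_PBS replicate 2 was also the lowest of its group for this gene, at 1.60 CPM.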

How the results depend on the processing

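Of the 10 genes, KO_PBS vs WT_PBS called 3 to 5 and KO_ASO vs KO_PBS 0 to 3 when 1 sample at a time was left out, the interaction 0 to 3, and the remaining 3 comparisons 0 throughout. In KO_ASO vs KO_PBS, 0 genes were called with no filter and 1 with the compared groups alone, against 2. DESeq2 called 3 genes in KO_ASO vs WT_PBS, 1 in KO_ASO vs WT_ASO and 3 in the interaction, against 0 in each. Without scaling, the log2FC in KO_PBS vs WT_PBS turned to 0.11 for Chrne, 0.038 for Dok7 and 0.0023 for Rapsn. With limma-voom it turned to 0.016 for Dok7 in that comparison, to 0.035 for Chrne and -0.044 for Dok7 in KO_ASO vs KO_PBS, and to -0.017 for Chrng in WT_ASO vs WT_PBS. Chrne in KO_ASO vs KO_PBS was at 0.0018 with the compared groups alone. On leaving out a sample, the sign turned for Chrne (-0.11 to 0.0061) and Dok7 (-0.31 to 0.030) in KO_PBS vs WT_PBS, for Chrne (-0.068 to 0.066), Dok7 (-0.082 to 0.27) and Rapsn (-0.091 to 0.015) in KO_ASO vs KO_PBS, for Musk in KO_ASO vs WT_ASO (-0.012 to 0.37) and for Chrng in the interaction (-0.12 to 0.70). None of these values was called, and the cause was not tested. For Chrne, Dok7 and Agrn the sign was followed only in KO_PBS vs WT_PBS and KO_ASO vs KO_PBS.

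The replicate numbers do not pair the mice by any label. Correlations of same-numbered samples ran from -0.08 to 0.44 over 24 pairs, and 14 of 16 samples correlated best with their own number. With the replicate block, 4 of the 10 genes were called in KO_PBS vs WT_PBS, since Chrng had a log2FC of 1.57 with an edgeR adjusted P of 0.0502, and 2 in KO_ASO vs KO_PBS, where Chrne stood at 0.0038. Over all genes tested, the block called 2322 genes in KO_PBS vs WT_PBS and 752 in KO_ASO vs KO_PBS, against 1878 and 544. It called 126 in the interaction and 8 in KO_ASO vs WT_PBS, against 86 and 6. In WT_ASO vs WT_PBS it called 2 and in KO_ASO vs WT_ASO 44, against 1 and 11. What same-numbered samples share was not tested. The block changed no other call of the 10 genes. Of the other named junction genes it called Bgn, Macf1 and Camk2a in KO_ASO vs KO_PBS, with a log2FC of -1.07, -0.42 and 0.55 and edgeR adjusted P values of 0.0332, 0.0395 and 0.0497.

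Over all genes tested, KO_ASO vs KO_PBS called 544 genes, and 1056 with DESeq2, 1186 with limma-voom, 300 with the compared groups alone and 208 to 831 on leaving out a sample. KO_PBS vs WT_PBS called 1878 genes, and 997 without KO_PBS replicate 1 and 1080 without WT_PBS replicate 4. DESeq2 called 33, 95, 422 and 385 genes in WT_ASO vs WT_PBS, KO_ASO vs WT_PBS, KO_ASO vs WT_ASO and the interaction, against 1, 6, 11 and 86. Leaving out a sample gave 1 to 4, 4 to 11, 2 to 19 and 23 to 102 in the same order, and the 4 in WT_ASO vs WT_PBS came without WT_PBS replicate 2. WT_ASO vs WT_PBS called 3 with no filter, and KO_ASO vs WT_ASO called 6 with RLE factors and 2 with limma-voom or the compared groups alone.

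The share of Chrng with the longest coding transcript as the length, an alternative chosen after seeing the data, was 0.779% in WT_PBS, 0.843% in WT_ASO, 2.47% in KO_PBS and 3.06% in KO_ASO. From plain counts with no length it was 1.33%, 1.44%, 4.16% and 5.14% in the same order. On leaving out a sample the share was 0.486% to 0.597% in WT_PBS, 0.492% to 0.694% in WT_ASO, 1.29% to 2.06% in KO_PBS and 1.82% to 2.47% in KO_ASO. Depth limits Chrng most, with 4 to 61 counts per sample.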
